A study of Mus musculus with 20 samples.

Results

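The 48 genes described here carry out the uptake, activation and oxidation of fatty acids and the handling of ketone bodies, and they make up 48 of the 24411 gene symbols counted in whole mouse kidneys. They were chosen by name with earlier results of these data known, and the rule used no measured value beyond an expression filter. They comprised 2 regulators, 6 genes of uptake and binding, 9 acyl-CoA synthetases and thioesterases, 5 genes of the carnitine shuttle, 11 genes of mitochondrial beta-oxidation, 3 genes of electron transfer, 9 peroxisomal genes and 3 genes of ketone body metabolism. All 48 passed the filter on low counts in every comparison except that of male mutants with male controls, where *Fabp1* was removed and 47 were tested. *Fabp1* had between 6 and 54 counts in males, while each of the other 47 members had at least 222 counts in every mouse.

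Kidneys of 20 inbred C57BL/6 mice were collected at P125 (counted in days after birth), 1 library of total RNA per mouse, from 5 controls and 5 mutants of each sex. The mutants carried *Pkd2* fl/fl; *Pax8* rtTA; TetO Cre, in which doxycycline (DOX) lets the *Pax8*-driven activator switch on Cre in the proximal tubule, the distal tubule and the collecting duct, so that *Pkd2*, a gene of polycystic kidney disease, is deleted in those segments. The controls, which the paper calls Cre-negative, were *Pkd2* fl/fl littermates without one or the other transgene, and the labels do not say which. Both genotypes received DOX hyclate at 50 mg per kg from P27 to P29. The mice came from 3 litters (A, B and C), and single mice are named by sex, genotype and a number given here (FM4 is female mutant 4, MC1 male control 1), which ties no mouse to a mouse of another group.

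Fatty acids are the main fuel of the proximal tubule. Long-chain fatty acids are taken up, bound by small carrier proteins, activated to acyl-CoA, passed into mitochondria as carnitine esters and shortened there by beta-oxidation, while peroxisomes shorten very long and branched chains and hand the products on. PPARalpha, a nuclear receptor that binds fatty acids, and its coactivator PGC-1alpha raise the transcription of many of these genes, and ketone bodies are made from and returned to acetyl-CoA by a short separate path.

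Levels are given as CPM, read counts scaled to a common library size after TMM normalisation, and mice are listed in the order 1 to 5 within a group. Total counts ran from 11307741 to 19324073 per mouse, and *Pkd2* itself was at 250.4 to 332 CPM in male controls against 110 to 133 in male mutants, and at 193 to 306 in female controls against 94.8 to 182 in female mutants. The library of FM4 stood apart, with 14850 genes detected and 76 genes at exactly 1 count, where the other libraries had 16776 to 17724 genes and 708 to 859 genes at 1 count, so the counts of members called that include it are also given without it. The tissue was that of a kidney: all 12 proximal tubule markers had counts in every group, the liver markers summed to at most 173 CPM and the adrenal cortex markers to at most 7.86 CPM. Kidney weight as a percentage of body weight (KBW), which rises with cyst growth, was 0.692% ± 0.117 (SD, n = 5) in controls and 1.68% ± 0.338 in mutants among males, and 0.615% ± 0.0448 in controls and 1.18% ± 0.261 in mutants among females.

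**Figure D1:**
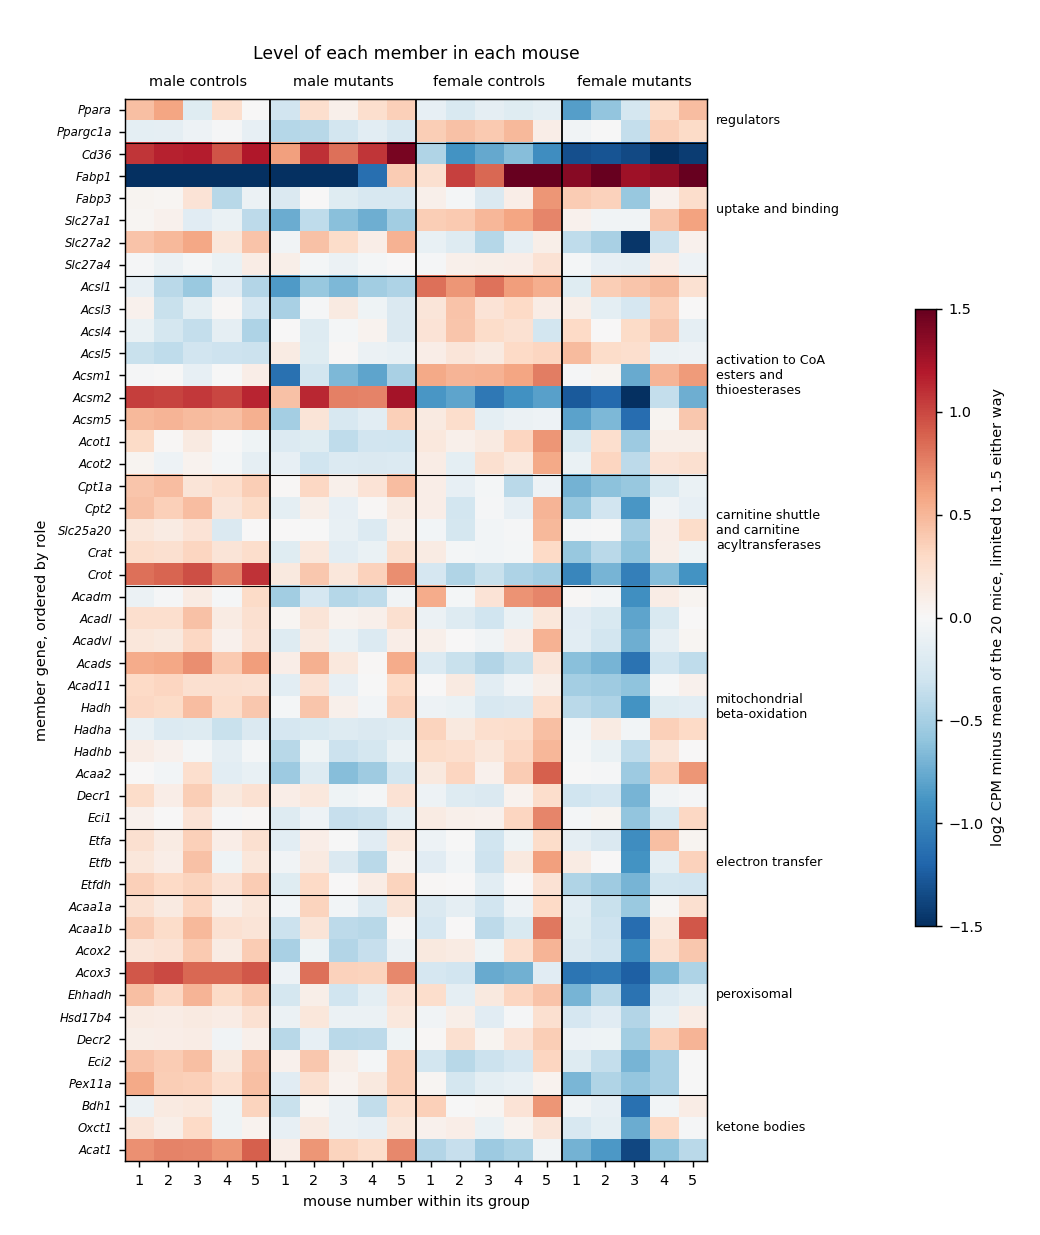
Level of each of the 48 members (rows, grouped by role) in each of the 20 mice (columns), as log2 CPM minus the mean of the 20 mice, with colours limited to 1.5 in either direction. Red is above and blue below the mean. The rows of *Cd36*, *Acsm2*, *Acox3*, *Crot* and *Acat1* are mostly red in males and blue in females (*Acox3* in male mutant 1 is just below the mean), *Fabp1* is mostly the reverse, and the column of female mutant 3 is blue through most of the mitochondrial and peroxisomal rows.

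Most of the members had lower estimated levels in mutants of both sexes, and the falls that passed the test spanned 7 of the 8 roles. With the sexes analysed together and litter and sex as covariates, 17 of the 48 members fell and 1 rose in mutants (edgeR quasi-likelihood test, Benjamini-Hochberg adjusted p under 0.01). Among all 14191 genes tested, 5.86% fell and 10.0% rose. The median log2 fold change of the members was -0.24, against -0.01 for all genes tested, and 45 of the 48 estimates were below 0, against 52.5% of all genes. The number that fell was 7 without MC4, FC1 or FM1, 10 without MM1 or FC4, 11 without MC1 or FC2, and 23 without FM4, against 8.43% of all genes in that fit. Over the 20 fits with 1 mouse left out, 3.77% to 8.43% of all genes fell. MC4 was the only male control of litter B, and FC1 and FM1 were the only control and mutant among the females of litter A. Leaving out any of them removed the whole genotype comparison within that sex and litter, not 1 mouse alone. At an unadjusted p under 0.05, 30 members were lower and 1 was higher, where 37.7% of all genes passed in either direction.

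In males alone, 9 of the 47 members tested fell and none rose, against 3.20% and 5.25% of the 14010 genes tested. At an unadjusted p under 0.05, 26 members were lower and 1 was higher, where 33.7% of all genes passed in either direction. DESeq2's Wald test called 14 lower and 1 higher, against 5.45% and 8.84% of all genes. The 9 were *Crot*, *Acox2*, *Acadm*, *Acsm1*, *Ehhadh*, *Acot1*, *Slc27a1*, *Decr2* and *Cpt2*. The median over the members was -0.20 on the log2 scale, with 44 of 47 below 0. The male calls depended on which mice were in the fit. No member was called without MC4, the sole male control from litter B, although the median was -0.19. In that fit the male mutants of litter B had no control of their litter, so more than 1 mouse was lost to the comparison. Without MM2, the male mutant with the lowest KBW, 12 were lower and 1 was higher. Of all genes, 0.537% fell without MC4, and 4.51% fell and 8.67% rose without MM2. The number of members was 2 without MC1, MC3, MM3 or MM4, 3 without MC2, and 4 without MC5 or MM5. Over the 10 fits with 1 male left out, 0.537% to 4.51% of all genes fell and 0.784% to 8.67% rose.

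In females alone no member passed the threshold with edgeR, where 0.180% of the 14439 genes tested fell and 0.457% rose. At an unadjusted p under 0.05, 21 members were lower and 1 was higher, where 20.6% of all genes passed in either direction, and without FM4 30 members passed, against 28.8%. DESeq2's Wald test called *Cd36*, *Crot*, *Ehhadh* and *Etfdh* lower, 4 of 48 where 1.97% of all genes were lower. The median over the members was -0.29, larger in size than in males, and the median standard error of a member was 0.13 in females against 0.08 in males. Without FM4, 5 members fell (*Acads*, *Cd36*, *Crat*, *Ehhadh* and *Etfdh*, against 1.25% of all genes), and the median was -0.35. Without FM3 no member was called, and the median was -0.18 with 38 of 48 below 0.

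The genotype difference itself did not differ detectably between the sexes for any member. The sex-by-genotype term called 0 of 14820 genes (0%), members included. At an unadjusted p under 0.05, 3 of the 48 members passed (*Cd36*, *Acsl5* and *Etfdh*), a share near the 4.17% of all genes, and DESeq2's Wald test called no member. Without FM4 no member was called either. Of the 47 members tested in both sexes, 42 were lower in mutants of both, *Acsl4* was higher in both, and *Ppara*, *Fabp3*, *Slc27a4* and *Acsl5* had opposite signs. Of all genes, 50.4% were below 0 in males and 50.5% in females, and the share below 0 in both was not counted.

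**Figure D2:**
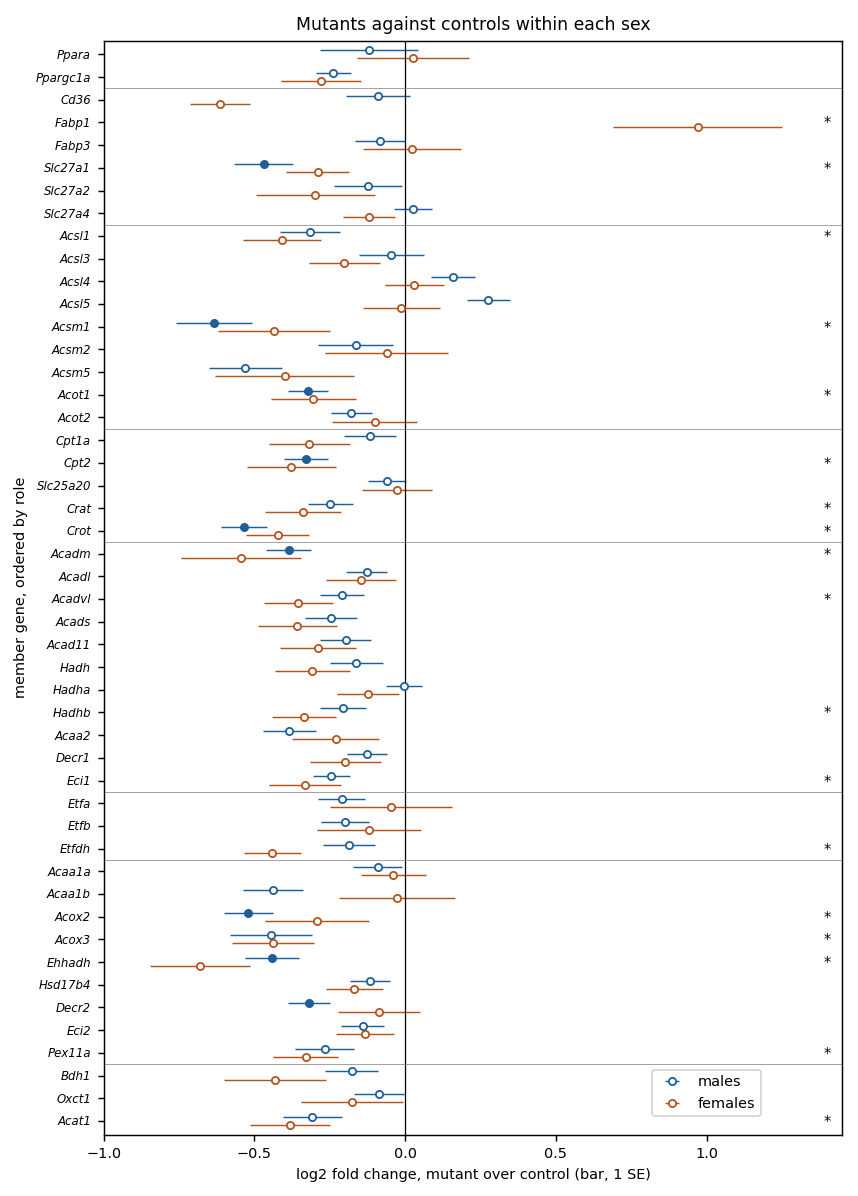
Log2 fold change of mutants over controls for each member (rows, grouped by role), from separate fits in males (blue) and females (orange), with bars of 1 SE. Filled points passed the threshold within that sex (9 in males, none in females), and a star at the right marks the 18 members called with both sexes together. The points right of 0 are those of *Acsl4* in both sexes, *Acsl5* and *Slc27a4* in males, and *Ppara*, *Fabp1* and *Fabp3* in females.

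The regulators did not pass the threshold. *Ppara*, which encodes PPARalpha, was at 221, 244, 142, 192 and 162 CPM in male controls and 132, 192, 170.3, 193 and 208 in male mutants. Female controls stood at 148, 137, 147, 142 and 146 CPM and female mutants at 90.8, 107, 135, 195 and 222. The controls of the females lay close together while the mutants spread on both sides of them, and the joint log2 fold change was -0.048 ± 0.14 (SE, adjusted p = 0.832). *Ppargc1a*, which encodes PGC-1alpha, was at 105, 106, 110.4, 115 and 106 CPM in male controls and 86.7, 87.2, 96.4, 104 and 98.0 in male mutants, with no overlap. Among females, controls were at 150.1, 158, 153, 163 and 124.6 CPM and mutants at 112, 115, 90.5, 149 and 141, where the groups overlapped. Its joint log2 fold change of -0.26 ± 0.079 had an adjusted p of 0.0184, just outside the threshold, and it was called lower without FM4 and by DESeq2's Wald test.

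Among the genes of uptake and binding, *Slc27a1*, a fatty acid transport protein of the plasma membrane, fell. It was at 69.4, 71.0, 60.4, 63.4 and 51.4 CPM in male controls and 40.3, 52.2, 43.8, 40.9 and 47.4 in male mutants, and at 87.5, 88.8, 95.7, 102 and 113 in female controls against 71.1, 65.1, 65.4, 90.2 and 103 in female mutants. In males MM2 alone reached the range of the controls, in females FM4 and FM5 did. The joint log2 fold change was -0.38 ± 0.076 (adjusted p = 0.00122), called with any single mouse left out. *Cd36*, the fatty acid translocase, was at 266, 197, 214, 234 and 191 CPM in female controls and 146, 149, 143, 128 and 136 in female mutants, with no overlap. In males it was at 767, 812, 823, 704 and 838 CPM in controls and 559, 777, 647, 767 and 977 in mutants, where the groups overlapped. The log2 fold change was -0.61 ± 0.099 in females (adjusted p = 0.0103) and -0.090 ± 0.11 in males (adjusted p = 0.598), and the difference between the sexes had an unadjusted p of 0.00211 and an adjusted p of 0.715. The other transporters *Slc27a2* and *Slc27a4* and the heart-type binding protein gene *Fabp3* had joint log2 fold changes between -0.22 and -0.031 and did not pass.

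*Fabp1*, the liver-type fatty acid binding protein, was the member that rose. It was nearly silent in males, at 0.659, 0.508, 0.451, 0.649 and 0.708 CPM in controls and 0.622, 0.547, 0.590, 0.991 and 3.05 in mutants. The levels in females were 2.77, 4.86, 4.31, 6.85 and 7.60 CPM in controls and 6.16, 14.1, 5.77, 6.04 and 21.5 in mutants, and the groups overlapped in both sexes. MM5, FM2 and FM5 held the high values of the mutants. Jointly, the log2 fold change was 0.89 ± 0.23 (adjusted p = 0.00695). The call was lost in 11 of the 20 fits with 1 mouse left out, in which the adjusted p reached 0.0265, and with no litter term.

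The promoters of 4 members are shown as examples of the directions seen. *Fabp1* rose in the joint comparison, was untested between genotypes in males alone, and was lower in males than in females. *Ehhadh* and *Acadm* fell, and *Acsm2* was higher in males. The sequences come from the 250 bases before the RefSeq start on build GRCm38.p6, up to the first base that any annotated exon of the gene covers, printed 5′ to 3′ on the strand of the gene. They were searched on both strands for AGGTCA, the half-site that nuclear receptors such as PPARalpha bind, and for 2 half-sites of the form AGGNCA in the same orientation with 1 base between them, the arrangement that PPARalpha prefers with its partner RXR. Capitals mark these matches, all of which lie on the opposite strand.
*Fabp1* promoter, chr6:71199629-71199826 (plus strand, 198 bases): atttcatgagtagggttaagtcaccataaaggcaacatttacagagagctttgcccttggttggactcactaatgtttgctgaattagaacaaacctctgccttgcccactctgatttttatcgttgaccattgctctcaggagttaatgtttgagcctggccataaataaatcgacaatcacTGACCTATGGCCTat
*Ehhadh* promoter, chr16:21787835-21788084 (minus strand, 250 bases): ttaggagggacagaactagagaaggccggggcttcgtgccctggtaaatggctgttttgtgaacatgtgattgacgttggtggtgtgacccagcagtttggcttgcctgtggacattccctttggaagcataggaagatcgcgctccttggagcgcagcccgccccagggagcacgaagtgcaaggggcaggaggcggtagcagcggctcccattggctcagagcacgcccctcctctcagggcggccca
*Acadm* promoter, chr3:153944644-153944893 (minus strand, 250 bases): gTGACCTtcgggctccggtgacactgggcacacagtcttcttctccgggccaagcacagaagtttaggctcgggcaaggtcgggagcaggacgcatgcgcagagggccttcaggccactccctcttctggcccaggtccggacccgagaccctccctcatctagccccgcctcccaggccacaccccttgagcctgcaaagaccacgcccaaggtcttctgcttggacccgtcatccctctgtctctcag
*Acsm2* promoter, chr7:119554090-119554339 (plus strand, 250 bases): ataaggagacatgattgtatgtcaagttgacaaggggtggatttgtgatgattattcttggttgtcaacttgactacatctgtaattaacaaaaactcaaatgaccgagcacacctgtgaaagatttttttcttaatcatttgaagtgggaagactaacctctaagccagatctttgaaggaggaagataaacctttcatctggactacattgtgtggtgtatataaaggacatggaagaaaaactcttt
In *Fabp1* the capitals hold both an AGGTCA half-site and the pair, which overlap, and the pair starts 67 bases before the RefSeq start. *Acadm* holds 1 half-site and no pair, and *Ehhadh* and *Acsm2* hold neither in these windows. Of the 43 members with a promoter in the table, *Fabp1* alone held a pair, against 0.338% of 32851 promoters. Within 250 bases the half-site stood in 7 of 49 member promoters (*Acadm*, *Acadvl*, *Acsm1*, *Cd36*, *Cpt1a*, *Fabp1* and *Slc27a2*), or 14.3%, against 14.0% of all promoters. A match gives the letters only and does not show binding. *Acaa2*, *Acat1*, *Crat*, *Decr1* and *Hsd17b4* had no entry.

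Of the 9 acyl-CoA synthetases and thioesterases, 3 fell with the sexes together. *Acsm1*, a mitochondrial synthetase for medium-chain fatty acids, was at 276, 278, 256, 279 and 299.9 CPM in male controls and 129, 231, 175, 162 and 199.9 in male mutants. Every male mutant lay below every male control, MM1 lowest. In females it was at 415, 399, 401, 421 and 475 CPM in controls and 277, 288, 166, 397 and 437 in mutants, where FM5 lay within the range of the controls, FM4 just below it and FM3 lowest. The joint log2 fold change was -0.53 ± 0.12 (adjusted p = 0.00377), a call lost, for example, without MC4. *Acsl1*, the main long-chain synthetase of oxidative tissues, was at 379, 312, 280.2, 368 and 305 CPM in male controls and 229.5, 277, 258, 287 and 299 in male mutants. In males MM4 and MM5 overlapped with MC3. Female controls stood at 731, 656, 724, 638 and 602 CPM and female mutants at 363, 535, 549.7, 575 and 485, with no overlap. Its joint log2 fold change was -0.37 ± 0.083 (adjusted p = 0.00289), a call also lost without MC4.

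*Acot1* and *Acot2* encode a cytosolic and a mitochondrial acyl-CoA thioesterase of near-identical sequence. In the annotation, 23.5% of the 50-base windows of *Acot1* also occurred in *Acot2* and 24.6% of those of *Acot2* in *Acot1*, so that reads from one may have been dropped or counted to the other. *Acot1* was at 113, 94.4, 102, 92.6 and 89.4 CPM in male controls and 80.7, 81.9, 71.6, 76.5 and 75.7 in male mutants, without overlap. Among females, controls were at 104, 98.2, 103, 117 and 148 CPM and mutants at 79.7, 111, 63.7, 98.7 and 98.7, where FM2, FM4 and FM5 lay within the range of the controls. It fell by the joint test (log2 fold change -0.32 ± 0.081, adjusted p = 0.00678), a call lost in 11 of the 20 fits with 1 mouse left out. *Acot2* was at 45.8, 42.3, 46.2, 43.6 and 40.5 CPM in male controls and 41.1, 36.2, 38.6, 38.2 and 38.7 in male mutants. The levels in females were 48.2, 40.4, 52.8, 49.9 and 66.5 CPM in controls and 41.6, 55.7, 33.9, 51.5 and 52.8 in mutants, and it did not pass (joint log2 fold change -0.14 ± 0.080, adjusted p = 0.206). The difference between the pair was not tested.

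The other synthetases did not pass the threshold jointly. *Acsl4*, which prefers arachidonic acid, and *Acsl5* had joint log2 fold changes of 0.088 and 0.12, and neither passed. In males *Acsl5* was higher in every mutant than in every control, with a log2 fold change of 0.28 ± 0.071 and an adjusted p of 0.0193. *Acsl3* was at -0.13 and *Acsm2* at -0.11 on the same scale. *Acsm5*, a further medium-chain gene, was at -0.47 ± 0.14 with an adjusted p of 0.0223, and was called lower without FM4.

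In the carnitine shuttle, 3 of 5 members fell and all 5 estimates were below 0. *Crot*, the peroxisomal carnitine octanoyltransferase that prepares shortened chains for export to mitochondria, had the smallest adjusted p of the members in males and with the sexes together. It lies on chromosome 5 at 8966033-8997324 (GRCm38). It was at 667, 690.4, 734, 627 and 799 CPM in male controls and 417, 495, 422, 479 and 607 in male mutants, and at 316, 274, 299, 272 and 265 in female controls against 190.3, 231, 184, 241 and 201 in female mutants. The mutants lay below the controls without overlap in both sexes. Jointly, the log2 fold change was -0.48 ± 0.066, or 0.716 of the control level (adjusted p = 5.00e-05), called with any single mouse left out and under each other setting. *Cpt2*, the inner membrane carnitine palmitoyltransferase, and *Crat*, the carnitine acetyltransferase, fell, with joint log2 fold changes of -0.36 ± 0.088 and -0.30 ± 0.079 and calls that were lost in 7 and 15 of the 20 fits with 1 mouse left out. *Cpt1a*, the entry step and a PPARalpha target, was at -0.22 ± 0.087 (adjusted p = 0.0658), and *Slc25a20*, the carnitine carrier, at -0.047 ± 0.068 (adjusted p = 0.661).

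All 11 genes of mitochondrial beta-oxidation had estimates below 0 in males, in females and jointly, and 4 fell in the joint comparison. *Acadm*, the medium-chain acyl-CoA dehydrogenase, was at 1125, 1186, 1309, 1180.0 and 1466 CPM in male controls and 833, 1002, 891, 922 and 1156 in male mutants, where MM5 alone reached the range of the controls. In females it was at 1759, 1173, 1376, 1918 and 1984 CPM in controls and 1216, 1167, 631, 1291 and 1235 in mutants. FM3 stood far below the other female mutants, and FC2, the lowest female control, lay at the level of the mutants. The joint log2 fold change was -0.47 ± 0.11 (adjusted p = 0.00503), a call lost, for example, without MC4, FC1 or FM1. *Eci1*, an isomerase for unsaturated chains, fell by 0.29 ± 0.069 on the log2 scale. *Acadvl*, the very-long-chain dehydrogenase, fell by 0.29 ± 0.073 on the log2 scale. Of its exonic bases, 42.9% overlap other genes, and *Dvl2* on the other strand overlaps it most. Without strand information its reads cannot be fully told apart from those of *Dvl2*. *Hadhb*, the thiolase subunit of the trifunctional protein, fell by 0.28 ± 0.070 on the log2 scale, and shares 56.6% of its 50-base windows with *Gm13910*. The calls of *Acadvl* and *Hadhb* were likewise lost without MC4, FC1 or FM1, and that of *Eci1* without MC4.

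The partner subunit of the trifunctional protein, *Hadha*, was at 264, 248, 249, 226 and 246 CPM in male controls and 239.6, 243, 248, 245 and 250.3 in male mutants. Female controls stood at 359, 317, 339, 341 and 390.0 CPM and female mutants at 277, 309.7, 278, 366 and 349.7, and its joint log2 fold change of -0.069 ± 0.060 did not pass (adjusted p = 0.426). The male groups lay on top of each other, with estimates of -0.0034 ± 0.059 in males and -0.12 ± 0.10 in females. The remaining mitochondrial members (*Acadl*, *Acads*, *Acad11*, *Hadh*, *Acaa2* and *Decr1*) ran from -0.31 to -0.14, with adjusted p values from 0.0118 to 0.148.

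Electrons from these dehydrogenases pass through the electron transfer flavoprotein. Its oxidoreductase gene *Etfdh* fell by 0.32 ± 0.073 on the log2 scale (adjusted p = 0.00306), called with any single mouse left out. The subunit genes *Etfa* and *Etfb* were at -0.13 ± 0.12 and -0.16 ± 0.10 and did not pass, and 57.7% of the 50-base windows of *Etfb* also occur in *Gm45233*.

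**Figure D3:**
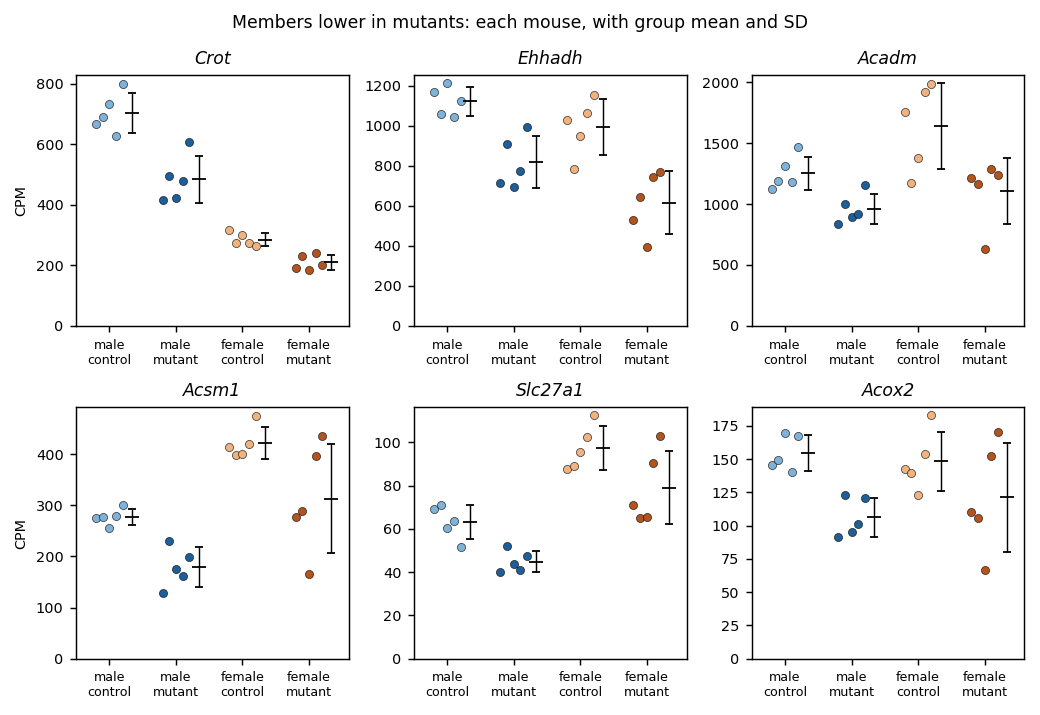
Levels in CPM of 6 members in each mouse (points, 5 per group), with the group mean and SD beside them. *Crot* separates mutants from controls in both sexes, *Ehhadh* likewise, and in *Acadm*, *Acsm1* and *Acox2* the lowest female value is that of female mutant 3.

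All 9 peroxisomal members had estimates below 0 in males, in females and jointly, and 4 fell in the joint comparison. *Ehhadh*, the peroxisomal bifunctional enzyme and a classical PPARalpha target, was at 1169.6, 1059, 1215, 1042 and 1126 CPM in male controls and 713, 911, 693, 776 and 993 in male mutants. Among females, controls were at 1028, 782, 951, 1065 and 1152 CPM and mutants at 527, 644, 396, 743 and 770.0. Mutants and controls did not overlap in either sex. Jointly, the log2 fold change was -0.57 ± 0.11 (adjusted p = 0.000649), the largest fall among the members and called with any single mouse left out. *Acox3*, the oxidase of branched chains such as pristanoyl-CoA, was at 254, 264, 242, 243 and 254 CPM in male controls and 126, 236, 169.5, 168 and 221 in male mutants, without overlap. The levels in females were 112, 109, 78.8, 80.6 and 118 CPM in controls and 62.6, 63.9, 57.0, 84.1 and 96.9 in mutants, with overlap through FM4 and FM5. It fell by 0.44 ± 0.10 on the log2 scale (adjusted p = 0.00387), a call lost, for example, without MC4, FC1 or FM1.

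*Acox2*, the branched-chain oxidase that also acts on bile acid precursors, was at 146, 149, 169.5, 140.0 and 168 CPM in male controls and 91.6, 123, 95.1, 101 and 121 in male mutants, without overlap. In females it was at 142, 139.8, 123, 153 and 183 CPM in controls and 111, 106, 67.0, 152 and 170.4 in mutants, where the groups overlapped. The log2 fold change was -0.52 ± 0.082 in males (adjusted p = 0.00206) and -0.40 ± 0.11 jointly (adjusted p = 0.00950), the latter lost in 15 of the 20 fits with 1 mouse left out. *Pex11a*, which acts in peroxisome division, fell by 0.30 ± 0.072 on the log2 scale in the joint comparison, a call lost, for example, without FC1 or FM1. *Decr2*, a reductase for unsaturated chains, fell in males (-0.32 ± 0.069, adjusted p = 0.00855) but did not pass jointly (-0.20 ± 0.087), and *Hsd17b4* and *Eci2* were at -0.15 and -0.14.

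*Acaa1a* and *Acaa1b* encode near-identical peroxisomal thiolases, with 26.7% of the 50-base windows of the first found in the second and 35.6% of those of the second in the first. *Acaa1a* was at 155, 145, 165, 139 and 149 CPM in male controls and 129, 167, 129, 115 and 152 in male mutants. Female controls stood at 114, 121, 108, 125.4 and 163 CPM and female mutants at 118, 105, 90.2, 135 and 157. The groups overlapped in both sexes. *Acaa1b* was at 328, 306, 353, 296 and 289.6 CPM in male controls and 202, 289.7, 193, 189 and 255 in male mutants, with overlap only through MM2 and MC5. Among females, controls were at 213, 254, 192, 216 and 438 CPM and mutants at 222, 204, 114, 282 and 482, highest in the mice of litter C, FC5 and FM5. Neither passed jointly (log2 fold changes of -0.068 ± 0.070 and -0.23 ± 0.13), and the split of reads between them is uncertain.

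Of the 3 ketone body genes, *Acat1* fell. It encodes the mitochondrial acetoacetyl-CoA thiolase, and was at 1244, 1291, 1285, 1221 and 1432 CPM in male controls and 826, 1218, 969, 927 and 1269 in male mutants. The levels in females were 570.4, 606, 529, 556 and 742 CPM in controls and 471, 426, 298, 506 and 582 in mutants, and the groups overlapped in females while in males MM5 alone reached the controls. The joint log2 fold change was -0.35 ± 0.088 (adjusted p = 0.00648), lost in 14 of the 20 fits with 1 mouse left out. *Bdh1*, which interconverts the main ketone bodies, was at -0.31 ± 0.11 (adjusted p = 0.0424) and *Oxct1*, which activates acetoacetate for use, at -0.14 ± 0.10 (adjusted p = 0.351).

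Between the sexes the members differed in both directions, in controls by up to 1.97 and -2.81 on the log2 scale and in mutants by up to 2.41 and -3.23. The values of -2.81 and -3.23 were those of *Fabp1*, which was nearly silent in males. In controls, 14 of 48 members were higher in males and 8 were lower, against 8.75% and 9.02% of the 14123 genes tested. In mutants 8 were higher in males and 3 were lower, against 3.59% and 1.84% of 14416 genes. All 11 members called in mutants were also called in controls, and all 22 called in controls had the same sign in mutants. The share of all genes with such agreement was not counted. For its differentially expressed genes, the paper reports a strong correlation of the sex differences between controls and mutants. Without FM4, 10 members were higher and 3 lower in male mutants, and without FM1 2 were higher and 2 lower. The number higher in male mutants was 5 without MM3, MM4 or FM2 and 3 without MM5 or FM5, and the number lower was 1 without MM3, MM4, MM5 or FM5 and 6 without FM3. Without MC4, 6 members were higher and 5 lower in male controls, and without FC1 8 were higher. MC4, FC1 and FM1 were each the only mouse of their sex and genotype in their litter. Leaving one out therefore removed the sex comparison within that litter. Over the fits with 1 mouse left out, 4.31% to 9.53% of all genes were higher and 4.26% to 9.08% lower in male controls, and 1.20% to 6.40% higher and 0.497% to 2.85% lower in male mutants.

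**Figure D4:**
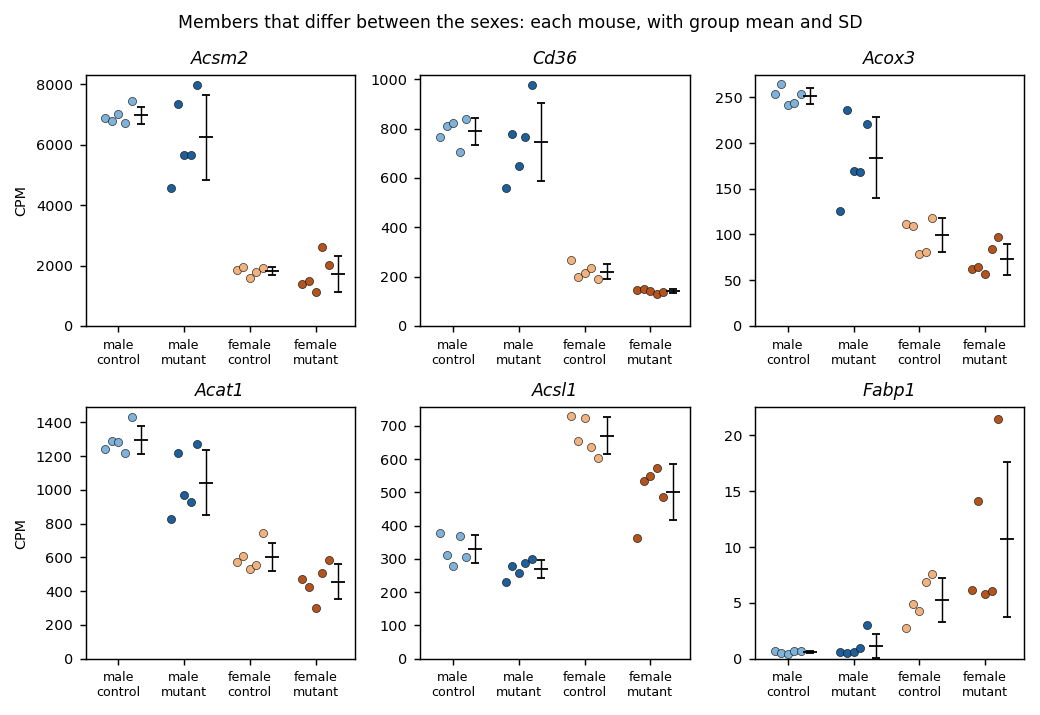
Levels in CPM of 6 members in each mouse (points, 5 per group), with the group mean and SD beside them. The means of *Acsm2*, *Cd36*, *Acox3* and *Acat1* are higher in both male groups than in both female groups, and those of *Acsl1* and *Fabp1* are lower.

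The largest differences in favour of males lay in *Acsm2*, *Cd36*, *Acox3*, *Crot* and *Acat1*. *Acsm2*, a medium-chain synthetase of the proximal tubule, was at 6903, 6780.4, 7016, 6726 and 7447 CPM in male controls and 1837, 1951, 1594, 1791 and 1921 in female controls, with a log2 difference of 1.97 ± 0.084 (adjusted p = 8.17e-09). Among mutants it was at 4555, 7367, 5672, 5655 and 7984 CPM in males and 1402, 1494, 1120.1, 2628 and 2018 in females (log2 difference 1.88 ± 0.26, and 2.10 without FM4, the highest female mutant). No female reached any male. *Cd36* was 3.51 times as high in male as in female controls (log2 difference 1.81 ± 0.098, adjusted p = 5.54e-08) and 5.33 times as high in male as in female mutants (2.41 ± 0.15, adjusted p = 4.57e-06). *Acox3* and *Crot* differed by 1.31 ± 0.10 and 1.30 ± 0.089 in controls and by 1.36 ± 0.18 and 1.24 ± 0.14 in mutants, and *Acat1* by 1.13 ± 0.072 and 1.18 ± 0.17. For each of these 5 genes every male lay above every female of its genotype. The other members higher in male controls were *Acads* (0.74), *Slc27a2*, *Eci2*, *Acsm5*, *Pex11a*, *Cpt1a*, *Hadh*, *Acadl* and *Etfdh*, with log2 differences of 0.30 to 0.51 for the last 8.

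*Fabp1* was the member furthest in favour of females, at 0.142 of the female level in male controls (log2 difference -2.81 ± 0.27, adjusted p = 1.10e-05) and 0.106 in male mutants (-3.23 ± 0.32). It had only 6 to 11 counts in male controls and 8 to 54 in male mutants. In these fits it passed the filter on low counts through the females, so its test and rank are not independent of that filter. *Acsl1* was at 0.510 of the female level in male controls (-0.97 ± 0.10, adjusted p = 2.04e-05) and 0.574 in male mutants (-0.80 ± 0.13, adjusted p = 0.00306). In both genes every male lay below every female of its genotype. *Slc27a1* (-0.61 ± 0.11), *Acsm1* (-0.56 ± 0.063) and *Hadha* (-0.52 ± 0.064) were lower in male controls, as were *Acsl5*, *Ppargc1a* and *Hadhb*, with log2 differences of -0.48, -0.37 and -0.32. *Ppara* was higher in male controls by 0.42 ± 0.14 and did not pass (adjusted p = 0.0360).

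Sex and genotype met in several genes with different signs. *Crot*, *Acox3* and *Acat1* were higher in males and lower in mutants, so that female mutants held the lowest group means. *Acsl1*, *Acsm1* and *Slc27a1* were lower in males and lower in mutants, and male mutants held the lowest group means. For *Acsm1* these means were 278 ± 15.5 CPM (SD, n = 5) in controls and 179 ± 38.6 in mutants among males, and 422 ± 30.7 and 313 ± 107 among females. For *Crot* they were 703 ± 66.1 and 484 ± 77.1 CPM in males and 285 ± 21.6 and 209 ± 25.2 CPM in females.

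Among mutants, 46 of the 48 members had an estimated level that was lower in mice with larger kidneys, but no slope passed the threshold. As a single value per mouse, the median over the 48 members of log2 CPM, centred on the mean of the 20 mice, was 0.21, 0.13, 0.28, 0.09 and 0.22 in male controls and -0.17, 0.11, -0.10, -0.13 and 0.16 in male mutants. In females it was 0.07, -0.01, -0.06, 0.05 and 0.30 in controls and -0.19, -0.23, -0.65, 0.04 and 0.04 in mutants. The KBW of the male mutants was 2.15%, 1.22%, 1.79%, 1.54% and 1.71%, and that of the female mutants 1.38%, 1.24%, 1.46%, 0.836% and 1.00%, in the same order. FM3, with the largest KBW of the females, had the lowest median, and FM4 and FM5, with the smallest, lay among the controls. The library of FM3 also held 425 CPM of summed adipocyte markers, where the other female mutants held 0.480 to 8.28, and the highest TMM factor of the 20, 1.21, and the part of either in its member levels was not tested. MM5 had the highest median of the male mutants at a KBW of 1.71%, so the order was not strict in males.

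With KBW as a number and sex as a covariate in the 10 mutants, no gene passed the threshold, among members or among all 14416 genes tested (0%). For members the slopes ran from -1.33 to 0.49 on the log2 scale per percentage point of KBW, with a median of -0.56 against -0.06 for all genes, and 46 of 48 were below 0, against 55.1% of all genes. At an unadjusted p under 0.05, 28 members had a negative and 1 a positive slope, where 22.3% of all genes passed in either direction. The slopes above 0 were those of *Acsl4* and *Acsl5*. The members nearest the threshold were *Acox3* (-0.997 ± 0.22, adjusted p = 0.0414) and *Acsm1* (-1.20 ± 0.27, adjusted p = 0.0449), and DESeq2's Wald test called these and *Acsm2* and *Acsm5*, 4 of 48 where 1.04% of all genes had a called negative slope. *Ppara* had a slope of -1.01 ± 0.33 (adjusted p = 0.108).

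Taken within a sex, with 5 mice and no test, the slope of the per-mouse median was -0.26 in male and -0.91 in female mutants. Slopes were negative for 42 members in males and 45 in females, and for 41 in both. The share of all genes with negative slopes within a sex was not counted. Without FM3 the median slope of the members was -0.43 with 44 below 0, and without FM4 it was -0.51 with 45 below 0. Without the sex covariate it was -0.17, and with litter added to sex -0.54. All 12 proximal tubule markers had negative slopes as well, with a median of -0.91, and their part in the slopes of the members was not tested.

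**Figure D5:**
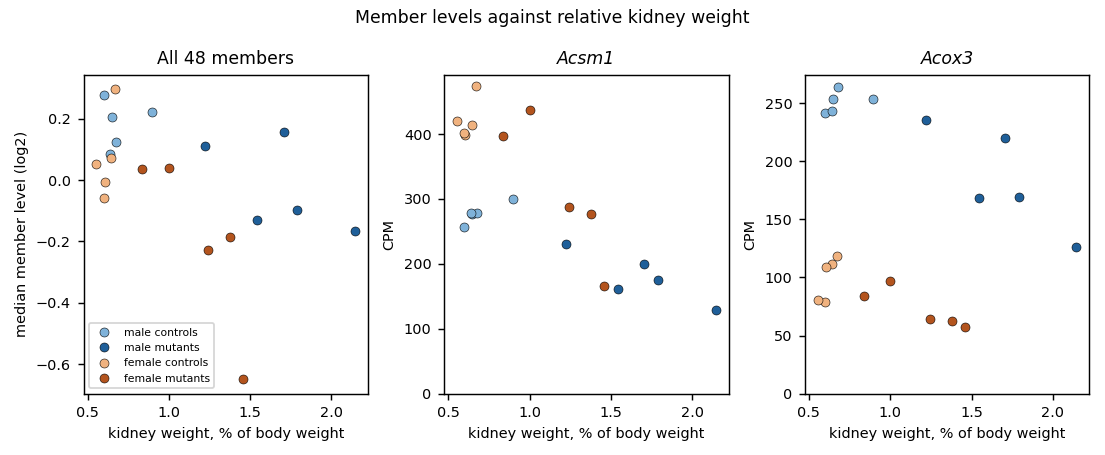
Kidney weight as a percentage of body weight (horizontal axis) against the median member level on the log2 scale (left) and the CPM of *Acsm1* (middle) and *Acox3* (right), 1 point per mouse, coloured by group. Among mutants of each sex the levels of *Acsm1* and *Acox3* are lowest in the mouse with the largest kidney, MM1 among males and FM3 among females.

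Markers of several cell types also changed in mutants, falling in some lists and rising in others. Of 12 proximal tubule markers, 2 fell in the joint comparison (*Slc13a3* and *Miox*) and 10 were below 0, with a median log2 fold change of -0.24, the same to 2 decimals as that of the members. Their summed level was 17211 to 17776 CPM in male controls and 11414 to 17100 in male mutants, and 13409 to 15045 in female controls and 8184 to 15570 in female mutants. All 5 markers of the thick ascending limb and distal convoluted tubule fell, with a median of -0.73. Of the collecting duct markers 4 of 6 fell, and of the podocyte markers 3 of 4. None of 4 endothelial, 3 liver or 1 adrenal cortex markers tested was called. All 4 macrophage markers and 3 of 4 fibroblast markers rose, with medians of 1.49 and 1.64, and all 4 tubule injury markers rose, with a median of 4.87. In whole kidney RNA, fewer cells of a type and less RNA per cell cannot be told apart, and the part of cell composition in the fall of the members was not tested. The markers of adipocytes, cells that also express *Cd36* and *Slc27a1*, summed to between 0.339 and 425 CPM (FM3), with ranges that overlapped between all 4 groups, and 2 of 6 were tested jointly with none called.

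Of 71 further genes of the pathway, listed beside the members, 66 were tested in the joint comparison. Of these, 16 fell and 3 rose, against 5.86% and 10.0% of all genes, with a median log2 fold change of -0.21. Among those that fell were *Cpt1b*, the muscle-type transferase (-1.37 ± 0.36, at no more than 1.78 CPM), *Acot3*, a peroxisomal thioesterase (-0.62 ± 0.15), and *Acacb*, the acetyl-CoA carboxylase whose product inhibits the entry step (-0.59 ± 0.075, adjusted p = 2.46e-05). *Fabp5*, *Acat3* and *Acsf2* rose by 0.76 ± 0.14, 0.71 ± 0.15 and 0.37 ± 0.074.

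Between male and female controls, 21 of the 66 further genes were higher in males and 9 were lower, against 8.75% and 9.02% of all genes. *Acsm3*, a further medium-chain synthetase, was at 957, 1068, 910.2, 1009 and 1351 CPM in males and 4.22, 3.98, 4.84, 2.09 and 4.18 in females (log2 difference 8.13 ± 0.18). *Amacr*, the racemase that readies branched chains for oxidation, was higher in males by 1.97 ± 0.083. *Acot7*, *Hao2* and *Hacl1* were lower in males, with log2 differences of -1.89, -1.66 and -1.63.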

How the data were processed

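Whole kidney RNA of 20 mice was sequenced, 1 library per mouse. Reads were trimmed (fastp 0.23.2) and mapped to mm10 (STAR 2.7.10b) by the authors, who deposited raw counts per gene symbol; the counting tool, annotation and use of strand are not given in the sources used here. Total counts of 11307741 to 19324073 per mouse limit the precision of low genes such as *Fabp1*.

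The counts were tested with edgeR 4.0.16 under R 4.3.3 (filterByExpr, TMM, quasi-likelihood test, Benjamini-Hochberg adjustment over all genes tested, threshold 0.01), with DESeq2 1.42.0 as an alternative. Genotypes were compared within sex with litter as a covariate and jointly with the 6 groups of sex and litter, sexes within genotype with litter, and KBW in mutants with sex. Log2 CPM used a prior count of 2. KBW was kidney weight over body weight as the labels give them, of a size that fits 1 kidney. The code was tested on simulated data.

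Members, their roles, 71 further pathway genes and 11 marker lists were chosen with earlier results of these data known, so lists are described by counts and medians without a test. Values of each mouse are given for the regulators, for members called in a genotype comparison and among the 5 largest changes of their direction there, for the 5 largest called differences in each direction between male and female controls, and for near-identical pairs; up to 6 called further genes are named for genotype, and likewise for sex, and 1 gene that this rule names is not reported here. Shared sequence was counted in 50-base windows of the GENCODE annotation.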

Additional observations from a re-analysis of the deposited data

Results flagged for a closer look

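In groups of 5 mice, the distance of the highest or lowest mouse from its nearest neighbour was set against the range of the group. Distances and ranges were taken on the log2 scale, over 80 groups of named members and summary values. A single value stood apart. *Acadm* in FM3 was at 631 CPM, where the other female mutants ran from 1167 to 1291 CPM. On the log2 scale the gap made up 0.858 of the range. The same library held the most adipocyte marker RNA of the 20, a summed 425 CPM, and the part of this in the value was not tested. Chance alone flags about 1 in 20 groups.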

How the results depend on the processing

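Member counts for the genotype comparisons depended most on tool, threshold and single mice. In males DESeq2's Wald test called 14 lower and 1 higher, against 5.45% and 8.84% of all genes. An adjusted p under 0.05 gave 18 and 1, where 2829 of 14010 genes passed in either direction. All 20 mice in 1 fit gave 1 lower, where 240 of 14820 genes fell, a share near that of the members. In females the Wald test, the fit of all 20 mice and the threshold of 0.05 each called 4 lower. Of all genes, 1.97% fell by the Wald test and 293 of 14820 fell in the fit of all 20 mice. At 0.05, 791 of 14439 genes passed in either direction. No filter or no litter term called 1 lower, where 59 of 19367 and 49 of 14439 genes fell. In the joint comparison *Fabp1* was not called higher (0 members) with at least 10 counts in every mouse, where it was untested, or without litter. All 20 mice in 1 fit gave 8 members higher in male than female controls and 6 lower in male than female mutants, where the Wald test gave 5. The share of all genes called in those fits is not given here, so these counts are not read as a result about the members. For KBW the Wald test called 4 lower, against 1.04% of all genes. The threshold of 0.05 gave 2, where 363 of 14416 genes passed in either direction.

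With 1 mouse left out, members lower ranged from 0 to 12 in males, 0 to 5 in females and 7 to 23 jointly, and members higher from 0 to 1 in males and jointly. Of all genes, 0.537% to 4.51% fell in males, 0.00% to 1.25% in females and 3.77% to 8.43% jointly. The share that rose ran from 0.784% to 8.67% in males and from 7.23% to 12.5% jointly. Between controls 6 to 15 were higher and 5 to 8 lower in males, and between mutants 2 to 10 and 1 to 6. The joint log2 fold change of *Ppara* ranged from -0.13 to 0.026 and was positive in 3 such fits. Medians over members ranged from -0.26 to -0.15 in males, -0.35 to -0.18 in females, -0.29 to -0.22 jointly and -0.67 to -0.43 for KBW. The cause was not tested. No paired analysis was possible because replicate numbers were given in accession order and pair no mice, litter being a covariate in each comparison of groups but not for KBW.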
